A study of Mus musculus with 11 samples.

Results

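Imprinted genes were examined in the hindlimb (HL) buds of E10 mouse embryos, in wild type (WT) embryos and in embryos labelled as knockouts of Meis1 and Meis2 (M1KO;M2KO, written KO). The members were 36 mouse genes with imprinted expression, taken by symbol. Of these, 31 were in the deposited table of 13720 genes, 14 of the 16 listed genes expressed from the maternal allele and 17 of the 20 expressed from the paternal allele. Peg13, Slc22a18, Kcnq1ot1, Snrpn and Ascl2 were not analysed here. Of the 31 genes, 29 passed a filter of 1 CPM (counts scaled to a common library total) in at least 4 libraries, and Phlda2 and Nap1l5 did not.

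Meis1 and Meis2 encode TALE homeodomain transcription factors that act with Hox and Tbx proteins in the early limb field, and the study asked what their loss does to limb initiation and patterning. RNA-seq libraries were made from 5 WT and 6 KO embryos, each from both HLs of 1 embryo, in 2 library sets. The Ovation set, amplified with the NuGen Ovation kit, held WT S_252, WT S_254, KO S_258, KO S_280 and KO S_284. The NEBNext set, made with a directional NEBNext kit, held WT 1, WT 3, WT 4, KO 2, KO 3 and KO 4. In the Ovation set WT S_252 was wild type for both genes, WT S_254 was heterozygous for Meis1 although labelled WT by phenotype, and the KO embryos were labelled as null for both genes. These WT embryos were female from litter 1 at 30 to 32 somites, while KO embryos were males of litters 1, 3 and 4 at 30 to 33 somites, so that sex and genotype cannot be told apart within that set. In the NEBNext set all embryos were at about 30 to 31 somites, the KO embryos were labelled HoxB6CreER;Meis1Ko;Meis2KO, and sex and litter were not given. According to the study's methods, Meis2 was a floxed allele deleted by tamoxifen-induced HoxB6CreER in lateral plate mesoderm, from which the HL grows, Meis1 was either a constitutive or a conditional mutant allele, and the genetic background was mixed, so cells outside the Cre domain kept Meis2.

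Genomic imprinting is the expression of a gene from 1 parental allele, set by DNA methylation laid down at control regions in the germ line and kept in the embryo by factors such as ZFP57, TRIM28 and DNMT1. Imprinted genes lie in clusters that share a control region and often hold a long non-coding RNA. Many are highly expressed in embryonic mesoderm, and as a group they are known for effects on fetal and placental growth. The values here sum both alleles, so they hold a gene's level and nothing on which allele was read.

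The columns of deposited values summed to 754534 to 805762 CPM per library, and the read depth behind them is unknown. Pairwise correlations of libraries across genes were 0.964 to 0.984 (genes are not independent replicates), and no library was a copy of another. The gene-level values of the targeted genes did not separate the groups. Meis1 was at 106 to 150 CPM in WT libraries and 110 to 158 CPM in KO, and Meis2 at 180 to 239 CPM in WT libraries and 176 to 285 CPM in KO. A gene-level value takes in exons outside the deleted part, so it does not check the labels, and the group of each library rests on its label. Markers of HL mesenchyme were present, with all 10 of 10 listed genes tested with limma and 0 called, where 2.09% of all genes were. Of these 10, 4 were at an unadjusted p under 0.05, against 14.7% of all genes, with log2 FCs of -1.08 for Lhx9, -0.57 for Fgf10, 0.48 for Prrx1 and 0.28 for Hoxc10.

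The imprinted genes together made up 1.50 to 1.60% of the CPM total in WT libraries and 1.47 to 1.66% in KO libraries, so their summed output overlapped between the groups. The 5 genes with the highest CPM, Mest, Peg3, H19, Peg10 and Grb10, held 76.6 to 80.6% of this sum in WT and 77.4 to 80.7% in KO. Members listed as maternally expressed, of which Grb10, Ube3a, Gnas, Dcn, Trappc9 and Cd81 are so in some tissues only, made up 0.613 to 0.699% of the total in WT and 0.664 to 0.751% in KO, and members listed as paternally expressed 0.861 to 0.973% in WT and 0.782 to 0.936% in KO. Both ranges overlapped.

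Levels per kilobase of exon were used for a rough comparison of genes. The length was that of all annotated exons joined (2460 bases for H19, 18089 for Meg3), so genes with unused exons are understated. On this scale H19 was the highest member in WT at 873 ± 64.7 CPM per kb (SD, n = 5). H19 is a non-coding RNA that hosts miR-675. Its CPM in WT S_252, WT S_254, WT 1, WT 3 and WT 4 was 2037, 2201, 2129, 2387 and 1979, and in KO libraries it ran from 1965 over a median of 2218 to 2653. Mest, a membrane protein of the alpha/beta hydrolase fold that is widely used as a mesoderm marker, followed at 729 ± 49.6 CPM per kb. The lowest WT value of H19, 804 CPM per kb, lay next to the highest of Mest, 805 CPM per kb, so the spreads of these neighbours met at their edges. Peg10 (190 ± 22.1), Peg3 (164 ± 16.2), Grb10 (128 ± 13.3) and Nnat (106 ± 31.6 CPM per kb) came next, and the spreads of neighbours in that order overlapped. By WT mean, the lowest member was Nap1l5, a nucleosome assembly protein-like retrogene, at 0.480 ± 0.225 CPM per kb. Its CPM was 0.191, 1.28, 1.11, 0.876 and 0.972 in WT and 0.155 to 1.33 in KO, with a KO median of 0.651. The spread of Magel2 (0.523 ± 0.0894 CPM per kb) overlapped that of Nap1l5. Dcn had a higher WT mean, 0.631 CPM per kb, only through WT 3 at 2.46. The other WT libraries had Dcn at 0.0426 to 0.284 CPM per kb, and its KO mean of 0.303 was below the 0.360 of Nap1l5.

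**Figure D1:**
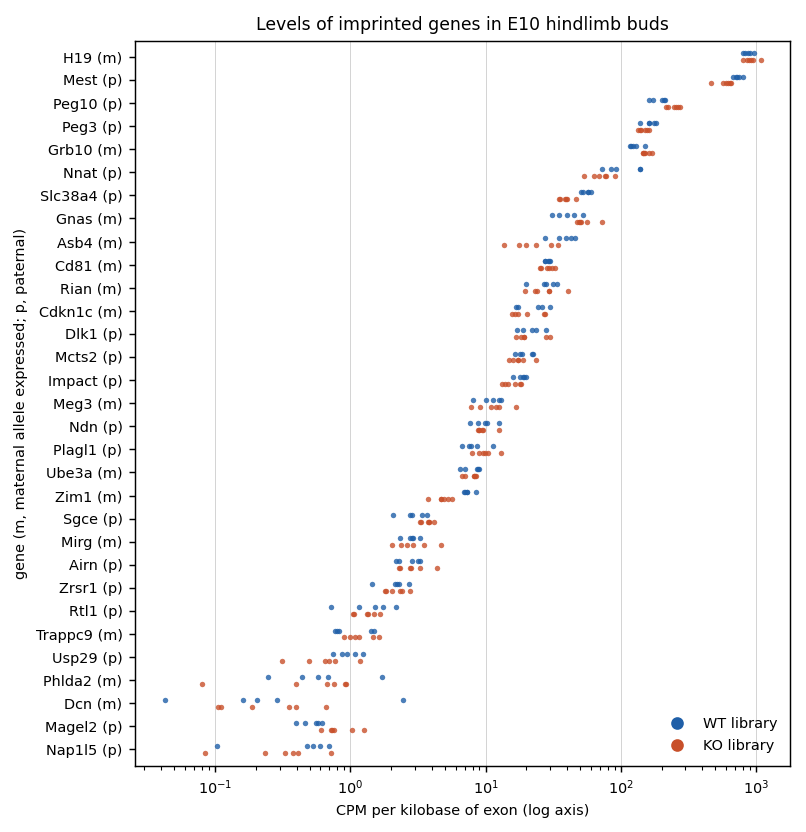
Level of each imprinted gene of the table per kilobase of exon (CPM per kb, log axis) in the 5 WT and 6 KO libraries, 1 point per library, ordered by mean level in WT. H19 and Mest lead at 873 and 729 CPM per kb, Nap1l5 closes the order at 0.480 CPM per kb, and the WT and KO points of most genes lie over each other.

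In the comparison of KO with WT, Slc38a4 and Zim1 fell and none of the other members tested rose or fell past the threshold. Slc38a4, an amino acid transporter expressed from the paternal allele, was at 0.70 times its WT level, and Zim1, a zinc finger protein gene expressed from the maternal allele, at 0.65 times. These were 2 of 29 members tested (6.9%) at an adjusted p under 0.05 with limma, where 2.09% of all 12996 genes tested were called (1.04% higher and 1.05% lower). Peg10 was the next member and missed the threshold at adjusted p = 0.0512.

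Over all members, 12 log2 FCs lay above 0 and 17 below, with a median of -0.01 (all genes tested, 0.00). The median size of the change without its sign was 0.16 on the log2 scale, against 0.13 over all genes tested. At an unadjusted p under 0.05 there were 12 members (41.4%) and 14.7% of all genes tested. The median level of the members in WT was 82.5 CPM against 19.7 CPM over all genes tested, and the part of this gap in those shares was not tested. By parental origin, 1 of 13 members listed as maternally expressed fell and none rose (median log2 FC -0.01). Of those listed as paternally expressed, 1 of 16 fell and none rose (median -0.04). Over all genes tested, 1.05% were called lower and 1.04% higher. Without the members that are maternally expressed in some tissues only, 2 of 23 were called (8.7%). KO and WT values did not overlap in 4 members, 13.8% of those tested against 3.49% of all genes: Slc38a4, Zim1 and Mest were lower in every KO library (1.67% of all genes) and Peg10 was higher (1.82% of all genes). In bulk tissue, fewer cells that express a gene and less RNA per cell cannot be told apart.

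Among markers of other cell types, the platelet genes Ppbp and Pf4 were lower in KO (6.56 to 0.837 CPM and 8.50 to 1.46 CPM on average, limma adjusted p = 0.00593 and 0.0168). The summed level of the 5 myeloid and platelet markers measured, of 8 listed, was 11.8 to 39.4 CPM in WT libraries and 6.64 to 12.3 CPM in KO. Gata3, on the intermediate mesoderm list, was higher (log2 FC 0.95, limma adjusted p = 0.0224), with sums of 10.9 to 26.8 CPM in WT libraries and 12.6 to 37.3 CPM in KO. No marker of surface ectoderm (0 of 10, 2 at an unadjusted p under 0.05), endothelium (0 of 9, 2), red blood cells (0 of 9, 0), somites (0 of 6, 0) or neurons (0 of 3, 1) was called with limma. Over all genes, 2.09% were called and 14.7% were at an unadjusted p under 0.05. These counts cover the listed markers only. Fgf8, a gene of the ectodermal ridge outside the list, was lower in KO (log2 FC -2.81, limma adjusted p = 0.00635). Blood varied most, at 1821 to 11923 CPM in WT libraries and 1379 to 13263 CPM in KO. The part of these cells in the values of the imprinted genes was not tested.

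**Figure D2:**
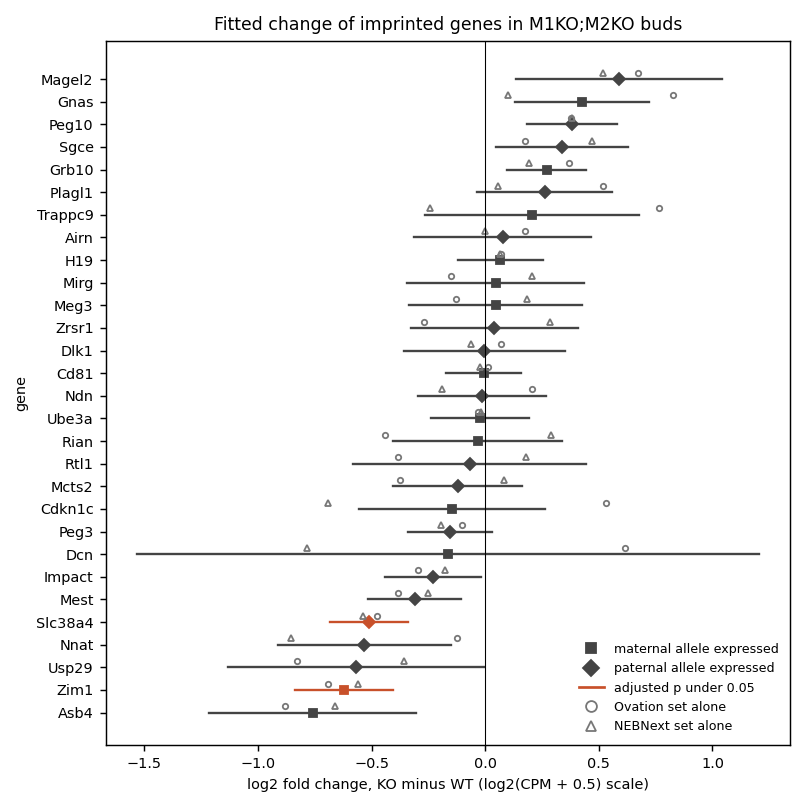
Log2 FC of KO against WT for the 29 imprinted genes tested, with 95% confidence intervals from limma, over all 11 libraries. The intervals of Slc38a4 (-0.68 to -0.34) and Zim1 (-0.84 to -0.41) lie below 0 and both genes passed the adjusted test, and 12 estimates lie above 0 and 17 below.

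Slc38a4 lies at chr15:96994820-97055956 on the minus strand of GRCm38 and encodes a carrier of neutral and cationic amino acids best known from the placenta and liver. Its CPM in WT was 255 in WT S_252, 222 in WT S_254, 244 in WT 1, 218 in WT 3 and 242 in WT 4. In the 6 KO libraries it ran from 147 over a median of 166 to 197. Every KO library was below every WT library. The mean fell from 236 ± 15.7 (SD, n = 5) to 166 ± 17.8 CPM (n = 6), a log2 FC of -0.51 (SE 0.08, limma adjusted p = 0.00592). The change was alike in size within each library set, -0.48 among Ovation and -0.54 among NEBNext libraries (limma adjusted p of the difference 0.912).

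Zim1 lies at chr7:6671269-6696450 on the minus strand, in the cluster of Peg3. Its CPM was 68.2, 56.2, 57.2, 58.5 and 59.1 in WT S_252, WT S_254, WT 1, WT 3 and WT 4. In KO libraries it ran from 30.6 over a median of 38.9 to 45.4, again below every WT library. The mean fell from 59.8 ± 4.82 (SD, n = 5) to 39.0 ± 5.03 CPM (n = 6), a log2 FC of -0.62 (SE 0.10, limma adjusted p = 0.00718). Within the sets the log2 FC was -0.69 (Ovation) and -0.56 (NEBNext), and the difference between them had a limma adjusted p of 0.841. Both genes were at an unadjusted p under 0.05 in each set, and neither passed the adjusted test in 1 set alone.

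The promoters of these 2 genes are shown because they were the members called. The promoters of Peg3, which shares the cluster of Zim1, and of Meg3, against which Rian, Mirg and Dlk1 were compared, are shown as well. Each is the 300-base RefSeq window (GRCm38.p6) from 250 bases before to 50 bases after an annotated start, written 5′ to 3′ on the gene's strand, with matches to TGCCGC in capitals. TGCCGC, searched on both strands (GCGGCA on the other), is the hexamer that ZFP57 binds when it is methylated.
Zim1 (chr7:6696383-6696682, minus strand): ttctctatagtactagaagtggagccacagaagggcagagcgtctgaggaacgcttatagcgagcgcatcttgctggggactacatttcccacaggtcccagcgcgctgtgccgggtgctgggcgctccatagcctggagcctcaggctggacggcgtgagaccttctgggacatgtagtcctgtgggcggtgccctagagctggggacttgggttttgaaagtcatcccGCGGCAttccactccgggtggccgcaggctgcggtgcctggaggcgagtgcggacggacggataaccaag
Peg3 (chr7:6730370-6730669, minus strand): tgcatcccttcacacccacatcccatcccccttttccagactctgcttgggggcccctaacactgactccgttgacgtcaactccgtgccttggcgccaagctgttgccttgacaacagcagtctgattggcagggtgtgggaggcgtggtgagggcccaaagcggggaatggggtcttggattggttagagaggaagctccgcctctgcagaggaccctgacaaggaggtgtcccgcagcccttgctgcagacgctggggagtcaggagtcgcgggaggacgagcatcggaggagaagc
Meg3 (chr12:109540746-109541045, plus strand): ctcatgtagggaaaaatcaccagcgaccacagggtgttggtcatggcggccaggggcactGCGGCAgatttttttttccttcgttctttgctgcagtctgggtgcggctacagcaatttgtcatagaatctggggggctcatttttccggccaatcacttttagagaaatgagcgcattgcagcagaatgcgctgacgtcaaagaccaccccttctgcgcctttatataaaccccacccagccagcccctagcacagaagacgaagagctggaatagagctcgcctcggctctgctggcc
Slc38a4 (chr15:97055907-97056206, minus strand): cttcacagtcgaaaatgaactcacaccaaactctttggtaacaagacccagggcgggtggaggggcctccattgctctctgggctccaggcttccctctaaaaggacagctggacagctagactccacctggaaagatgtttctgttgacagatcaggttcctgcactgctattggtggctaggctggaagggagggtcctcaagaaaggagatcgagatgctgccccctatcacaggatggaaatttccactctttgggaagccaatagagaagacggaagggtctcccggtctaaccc
The windows of Zim1 and Meg3 each held 1 match, and those of Peg3 and Slc38a4 held none. Slc38a4 has 3 annotated windows and Meg3 has 2, of which the first is shown. CG dinucleotides, which the hexamer itself contains, numbered 20 in the window of Zim1, 13 in those of Peg3 and Meg3, and 5 in that of Slc38a4, so the 2 genes called stood at 20 and 5. Windows were found for 23 of the 31 members in the table. Over all 33 windows of these members the median was 13 CGs, against 7 over the 32851 windows of the reference table. The hexamer was in 9 of the 33 member windows (27.3%) and in 11.6% of all windows, and by gene in 5 of 13 paternally and 3 of 10 maternally expressed members. The Mest windows starting at chr6:30737800 and chr6:30737803 nearly coincide and both held it. The shares were not matched for CG content. A match is only a run of letters, and a germ-line control region may lie outside these windows.

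In the cluster of Zim1, the paternally expressed neighbours Peg3 and Usp29 had lower means in KO as well, but neither was called. Peg3 encodes a zinc finger transcription factor and starts head to head with Usp29, a gene of the ubiquitin-specific protease family, their RefSeq promoter windows sharing 263 bases. Peg3 averaged 2180 ± 216 CPM in WT (SD, n = 5) and 1958 ± 144 in KO (n = 6), with a log2 FC of -0.15 (limma adjusted p = 0.436). The CPM of Usp29 was 22.5, 15.6, 19.4, 13.4 and 17.1 in WT S_252, WT S_254, WT 1, WT 3 and WT 4, and 5.62 to 21.4 in KO with a median of 12.2. Its groups overlapped, since KO S_280 at 21.4 CPM was near the highest WT library, and the log2 FC was -0.57 (limma adjusted p = 0.334). Zim1 was thus the only member of this cluster to pass the test, and the difference between its change and those of its neighbours was not tested.

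The cluster of Peg10 and Sgce on chromosome 6 held estimates of both signs. Peg10, a retrotransposon-derived Gag-Pol-like gene needed for the placenta, was at 1146, 1331, 1400, 1072 and 1377 CPM in WT S_252, WT S_254, WT 1, WT 3 and WT 4. KO libraries ran from 1446 over a median of 1677 to 1809 CPM, all above the highest WT library. The log2 FC was 0.38 (SE 0.09, limma adjusted p = 0.0512), with 0.38 in each set. Peg10 thus missed the threshold narrowly, and it passed under 6 of the 22 alternatives (adjusted p from 0.0215 to 0.157 over all of them).

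Sgce encodes epsilon-sarcoglycan, shares its promoter region with Peg10 and is read in the opposite direction. Its CPM was 29.4, 36.2, 30.4, 21.7 and 39.2 in WT and ran from 34.9 over a median of 39.9 to 44.0 in KO. The groups overlapped and the log2 FC was 0.34 (limma adjusted p = 0.251). Asb4, a maternally expressed ankyrin repeat and SOCS box protein gene of the same cluster, was at 154, 167, 180, 136 and 108 CPM in WT S_252, WT S_254, WT 1, WT 3 and WT 4. In KO it ran from 53.4 over a median of 85.7 to 135 CPM, with KO S_280 (120 CPM) and KO 3 (135 CPM) inside the WT range. The mean was 149 ± 28 CPM in WT (SD, n = 5) and 91.6 ± 31.0 in KO (n = 6), and the log2 FC of -0.76, the lowest estimate among the members, did not pass the test (limma adjusted p = 0.0909). Over the 22 alternatives the limma adjusted p of Asb4 ran from 0.0259, without KO 3, to 0.232.

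**Figure D3:**
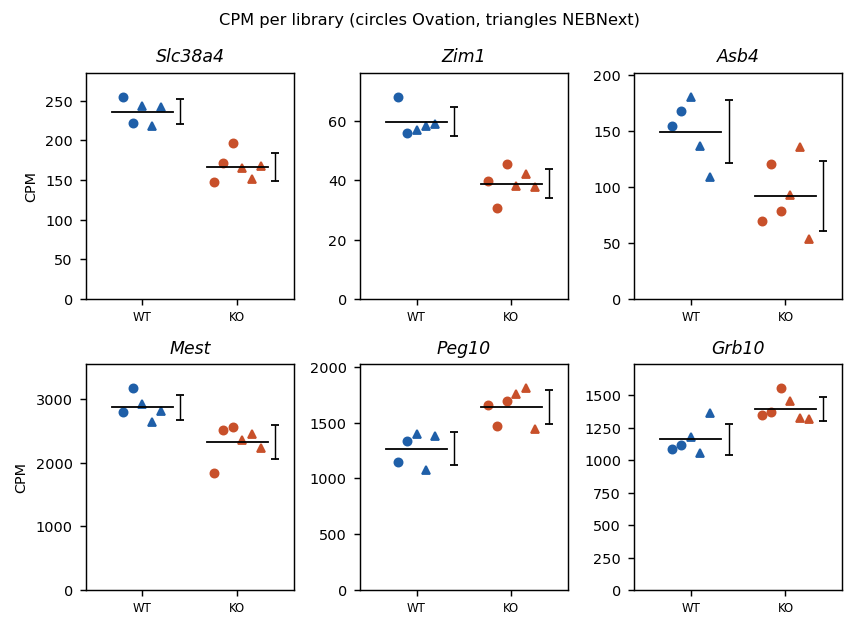
CPM of Slc38a4, Zim1, Asb4, Mest, Peg10 and Grb10 in each library, by genotype, with 1 point per library marked by library set and bars for group means. KO points lie below all WT points for Slc38a4, Zim1 and Mest and above them for Peg10, and the groups overlap for Asb4 and Grb10.

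Mest was lower in every KO library but was not called. Its CPM was 2804, 3174, 2930, 2645 and 2823 in WT S_252, WT S_254, WT 1, WT 3 and WT 4, and 1842 to 2567 in KO with a median of 2411. The log2 FC was -0.31 (SE 0.10, limma adjusted p = 0.123). The exons of Mest overlap those of Copg2 on the opposite strand over 912 bases, 23.1% of its exon length, and the Ovation libraries are not stated to keep strand, so it is not known whether their reads were assigned by strand.

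Grb10, an adaptor that restrains insulin and IGF1 receptor signalling, is maternally expressed in most tissues and paternally in neurons. It was at 1084, 1119, 1181, 1058 and 1360 CPM in WT S_252, WT S_254, WT 1, WT 3 and WT 4, and at 1316 to 1553 CPM in KO with a median of 1358. WT 4 was the only WT library inside the KO range. The log2 FC was 0.27 (SE 0.08, limma adjusted p = 0.112). Over the 22 alternatives the limma adjusted p of Grb10 ran from 0.0462, without WT 4, to 0.346. H19 had a log2 FC of 0.07 (95% CI -0.12 to 0.26, limma adjusted p = 0.811), and its paternally expressed neighbour Igf2, a fetal growth factor outside the members, was at 1775 CPM in WT libraries and 1863 CPM in KO.

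No difference between the library sets in the effect of genotype passed the adjusted test for any member. In the Ovation set alone 1 member, Gnas, was called with limma, against 1.15% of all genes. In the NEBNext set alone no member was called, against 0.0231% of all genes (3 genes). At an unadjusted p under 0.05 there were 12 members in the Ovation set (17.1% of all genes) and 8 in the NEBNext set (12% of all genes). A genotype by set interaction was called for 0 members and 0 genes with limma, with 5 members at an unadjusted p under 0.05 (Cdkn1c, Gnas, Trappc9, Rian and Nnat) where 13% of all genes were, and Gnas, Nnat and Cdkn1c are described next. Over both sets, 16 of the 29 members (55.2%) had log2 FCs of the same sign, near the 52% of all genes tested.

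Gnas encodes the stimulatory G protein alpha subunit and is maternally expressed in some tissues only. The gene has 4 annotated promoter windows, and its gene-level value sums the transcripts from all starts. Its CPM was 389, 348, 503, 588 and 446 in WT S_252, WT S_254, WT 1, WT 3 and WT 4, and 527 to 804 in KO with a median of 561. The lowest values were the WT libraries of the Ovation set and the highest was KO S_258. The log2 FC was 0.42 (limma adjusted p = 0.149), with 0.83 among Ovation and 0.10 among NEBNext libraries, and the difference between the sets was not called (limma adjusted p = 0.166). Exons of Gnas overlap those of the antisense RNA Nespas over 988 bases and of Gm20721 over 1469 bases, so its value carries the same uncertainty as that of Mest.

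Nnat encodes neuronatin, a small membrane proteolipid. Its CPM was 155 in WT S_252, 169 in WT S_254, 255 in WT 1, 255 in WT 3 and 132 in WT 4, and 98.4 to 164 in KO with a median of 132. WT 1 and WT 3 stood above all other libraries. The log2 FC was -0.53 (limma adjusted p = 0.162), with -0.13 among Ovation and -0.86 among NEBNext libraries, where the difference between the sets had an adjusted p of 0.334.

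Cdkn1c, named here after its values were seen, encodes the cyclin-dependent kinase inhibitor p57 and is maternally expressed. In the Ovation set it was at 35.1 and 34.1 CPM in WT libraries and at 55.7, 41.1 and 55.4 CPM in KO S_258, KO S_280 and KO S_284. In the NEBNext set it was at 53.7, 61.0 and 49.8 CPM in WT libraries and at 33.7, 31.9 and 35.4 CPM in KO 2, KO 3 and KO 4. All KO libraries were above WT in the first set and all were below WT in the second, a pattern of opposite groups that 2.83% of all genes showed. The log2 FC was 0.53 and -0.69, a difference of 1.23 (SE 0.19) that did not pass the test (limma adjusted p = 0.0741). Over 19 alternatives the limma adjusted p of this difference ran from 0.00728, without KO S_280, to 0.223. Over both sets the log2 FC was -0.15 (limma adjusted p = 0.807). The sets differ in kit, sex and genotype coincide in the Ovation set, and sex and litter of the NEBNext embryos are not given, so the parts of these cannot be told apart.

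**Figure D4:**
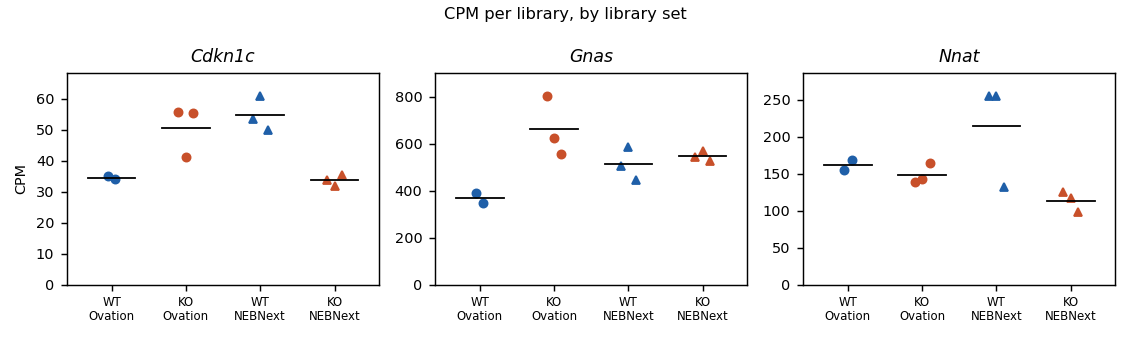
CPM of Cdkn1c, Gnas and Nnat in WT and KO libraries of the Ovation and NEBNext sets, 1 point per library with bars for means. Cdkn1c is higher in KO in the Ovation set (41.1 to 55.7 against 34.1 and 35.1 CPM) and lower in KO in the NEBNext set (31.9 to 35.4 against 49.8 to 61.0 CPM).

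The Dlk1-Dio3 cluster on chromosome 12 showed no call between genotypes, and Rian, Mirg and Dlk1 varied with Meg3 among libraries. The maternally expressed long non-coding RNAs Meg3, Rian, which hosts C/D snoRNAs, and Mirg, which hosts a miRNA cluster, lie in this order on the plus strand. Dlk1, a Delta-like transmembrane protein gene, and Rtl1, a retrotransposon-derived gene, are expressed from the paternal allele of the same region. The log2 FCs of the 5 genes were -0.07 to 0.05 over both sets, 0 of 5 were called with limma and 0 had an unadjusted p under 0.05. All 5 had opposite signs in the sets, with Meg3 at -0.13 (Ovation) and 0.18 (NEBNext), Mirg at -0.15 and 0.20, Rtl1 at -0.38 and 0.18, and Dlk1 at 0.07 and -0.06. Rian was at -0.44 and 0.29, with every KO library below every WT library in the Ovation set. That set has only 2 WT and 3 KO libraries, and the share of all genes separated there was not counted. Rian was not alone, as members of other clusters were separated there too, such as Impact and Mcts2 (lower) and Plagl1 and Magel2 (higher). The difference between the sets was not called for any of the 5 genes of the Dlk1-Dio3 cluster (limma adjusted p from 0.317 for Rian to 0.916 for Dlk1). The 95% CI was -0.34 to 0.43 for Meg3, -0.40 to 0.34 for Rian and -0.36 to 0.35 for Dlk1, so changes of that size cannot be told from none.

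Meg3 was at 236, 183, 145, 229 and 204 CPM in WT S_252, WT S_254, WT 1, WT 3 and WT 4, and at 141 to 305 CPM in KO with a median of 206. Rian was at 614, 577, 365, 494 and 506 CPM in the same WT libraries and at 358 to 739 CPM in KO with a median of 487. Both were lowest among KO libraries in KO S_258 and highest in KO 3, and lowest among WT libraries in WT 1. Deviations of log2 CPM from the mean of each genotype and set correlated between Meg3 and Rian over the 11 libraries at r = 0.946 (rho = 0.891, exact permutation p = 0.00463 and 0.00926, adjusted over 7 pairs 0.00810 and 0.0162). For Meg3 and Mirg r was 0.934 (rho = 0.964, exact permutation p = 0.00231 for both, adjusted 0.00540 and 0.00810).

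The relation also crossed parental origin for Dlk1, while Rtl1, the other paternally expressed member of the cluster, was not compared with Meg3. Meg3 and the paternally expressed Dlk1 correlated at r = 0.887 (rho = 0.900, exact permutation p = 0.00231 and 0.00463, adjusted 0.00540 and 0.0108). Without KO S_258 and KO 4, whose deviations of Meg3 were farthest from the median deviation, r was 0.915, 0.887 and 0.866 for Rian, Mirg and Dlk1, and within the 6 NEBNext libraries it was 0.978, 0.927 and 0.968. Without KO 3, whose deviation of Meg3 from its group mean was the largest, r was 0.924, 0.916 and 0.862, a value added after the data were seen. The Ovation set, with 5 libraries, was too small for its own value. Peg3 and Usp29, which share a promoter region, correlated at r = 0.653 (rho = 0.818, exact permutation p = 0.00231 for both, adjusted 0.00540 and 0.00810), with r = 0.730 without WT 1 and WT 3 and 0.978 within the NEBNext set.

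The other pairs did not pass. Peg10 and Sgce correlated at r = 0.733 (rho = 0.700, exact permutation p = 0.0694 and 0.0532, adjusted 0.0972 and 0.0745, r = 0.610 without KO 4 and WT 3, 0.719 within the NEBNext set). H19 and Igf2, which share enhancers, correlated at r = 0.407 (rho = 0.336, exact permutation p = 0.410 and 0.444, adjusted 0.410 and 0.454, r = 0.337 without KO S_258 and WT 3, 0.072 within the NEBNext set). For Cdkn1c and Phlda2 r was -0.290 (rho = -0.273, exact permutation p = 0.313 and 0.454, adjusted 0.365 and 0.454, r = -0.480 without KO S_280 and WT 3, -0.751 within the NEBNext set), with Phlda2 under the filter. The smallest p that the 432 rearrangements within genotype and set allow is 0.00231. All libraries share the deposited normalisation, and the part of tissue composition in these shared deviations was not tested.

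**Figure D5:**
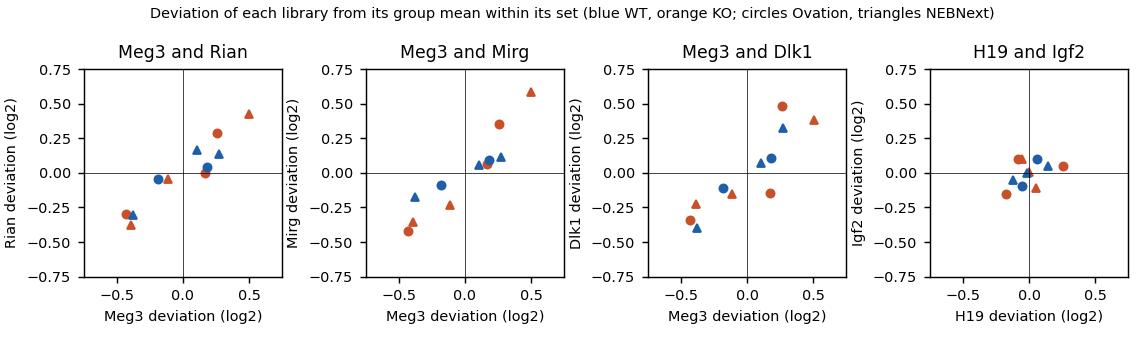
Deviation of log2(CPM + 0.5) from the mean of each genotype and set, Meg3 against Rian, Mirg and Dlk1 and H19 against Igf2, 1 point per library (n = 11). Points of the 3 Meg3 pairs follow a rising line (r = 0.946, 0.934 and 0.887), and those of H19 and Igf2 scatter (r = 0.407).

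In the Snrpn cluster on chromosome 7, Magel2 had the highest FC of all members tested and a low level. Magel2 encodes a MAGE family protein, and its CPM was 2.66, 1.84, 2.15, 2.59 and 2.86 in WT S_252, WT S_254, WT 1, WT 3 and WT 4. In KO it ran from 2.82 over a median of 3.43 to 5.86 CPM, and KO 3 at 2.82 CPM lay inside the WT range. The log2 FC of 0.59 did not pass (limma adjusted p = 0.194). The neighbouring MAGE family gene Ndn averaged 36.4 ± 6.91 CPM in WT (SD, n = 5) and 35.8 ± 5.32 in KO (n = 6), and the E3 ubiquitin ligase gene Ube3a, maternally expressed in neurons only, at 165 ± 23.1 and 162 ± 15.7 CPM.

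Impact, an inhibitor of the eIF2 alpha kinase GCN2 on chromosome 18, was at 97.9, 96.8, 102, 82.3 and 91.8 CPM in WT S_252, WT S_254, WT 1, WT 3 and WT 4. In KO it ran from 67.3 over a median of 79.9 to 93.0 CPM, with overlap, and the log2 FC was -0.23 (limma adjusted p = 0.291). Plagl1, the zinc finger factor Zac1, averaged 65.6 ± 13.9 CPM in WT libraries and 77.9 ± 13.3 in KO, with a log2 FC of 0.26 (limma adjusted p = 0.417). Trappc9, a subunit of a trafficking complex, had a log2 FC of 0.76 among Ovation and -0.24 among NEBNext libraries, a difference that was not called (limma adjusted p = 0.268).

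The retrogenes Zrsr1 and Mcts2, the antisense RNA Airn, which silences Igf2r on the paternal chromosome, and the tetraspanin gene Cd81 had log2 FCs between -0.12 and 0.08, none called. Cd81 had the narrowest interval of these, -0.17 to 0.16. Dcn, the proteoglycan decorin, was at 0.249 to 14.4 CPM in WT libraries and 0.615 to 3.85 CPM in KO, and its WT mean of 3.68 CPM rests on WT 3 at 14.4 CPM. Phlda2, a pleckstrin homology-like domain gene, was at 0.276 to 1.92 CPM in WT libraries and 0.0901 to 1.05 CPM in KO.

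Genes of imprint maintenance and DNA methylation showed no call. This list takes in de novo methyltransferases and 5-methylcytosine dioxygenases beside factors that keep imprints. Of 22 listed, 20 were tested with limma, 0 were called (1 at an unadjusted p under 0.05), and 15 estimates lay above 0 with a median of 0.06 (all genes tested, 0.00). The de novo methyltransferase gene Dnmt3a came nearest, at 111 ± 4.81 CPM in WT (SD, n = 5) and 130 ± 6.91 in KO (n = 6), a log2 FC of 0.22 (limma adjusted p = 0.0924). The 5-methylcytosine dioxygenase genes Tet2 and Tet1 followed at 0.23 and 0.12 (adjusted p = 0.383 and 0.591), and Zfp57 was at 46.2 CPM in WT libraries and 43.2 CPM in KO.

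Of 40 further genes with reported imprinting, 31 were tested, and 1 rose and none fell with limma, with a median log2 FC of 0.02. With 2.09% of all genes called, 1 of 31 was near the background. The gene that rose was Herc3, an E3 ubiquitin ligase gene that holds Nap1l5 in an intron. Herc3 was at 4.57, 2.87, 5.14, 4.86 and 3.48 CPM in WT S_252, WT S_254, WT 1, WT 3 and WT 4 and ran from 5.81 to 9.36 CPM in KO, above every WT library (log2 FC 0.78, adjusted p = 0.0449). Begain and Ppp1r9a came next and were not called (log2 FC 0.71 and -0.15, adjusted p = 0.270 and 0.438). Among 12 genes of the IGF axis, which several imprinted genes act on, 1 rose and 0 fell with limma, where 1.04% of all genes were called higher. Igf1 rose from 34.4 ± 3.60 to 75.1 ± 21.6 CPM (log2 FC 1.07, limma adjusted p = 0.00864), and a relation of this rise to the members was not tested. Igf2 and its imprinted receptor Igf2r had log2 FCs of 0.07 and -0.06.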

How the data were processed

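RNA was isolated from both HLs of single E10 embryos, 5 WT and 6 KO. According to the study's methods, the authors trimmed reads with cutadapt 1.3, estimated gene-level counts with RSEM 1.2.3 against GRCm38 (CASAVA 1.8.2 and bcl2fastq are also named in the submitters' processing notes), scaled them by TMM, removed the batch with ComBat and kept genes at 1 CPM in at least 4 samples. The deposited values are linear CPM per gene after these steps. Batch removal before the fit can make p-values too small, and whether genotype was given to it is not stated in the sources used here.

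Log2(CPM + 0.5) was fitted with limma 3.58.1 in R 4.3.3 on genotype and library set with a mean-variance trend, leaving 8 residual degrees of freedom. The filter was repeated on the deposited values and left 12996 of 13720 genes, removing 724. P-values were two-sided and Benjamini-Hochberg adjusted over all genes tested, with a threshold of 0.05. FCs of low genes are understated on this scale. Intervals are 95% and no FC is adjusted for litter, sex or stage. Each set was also fitted alone (3 and 4 residual degrees of freedom), and a genotype by set interaction over all libraries. Domain pairs used exact two-sided permutation within genotype and set (1 of 8 pairs had a gene not analysed here). Positions and exon lengths came from GENCODE mouse release 21 (GRCm38), which held 99.9% of the table's genes, and promoters from RefSeq (GRCm38.p6). Further processing used Python 3.11.15, numpy 2.4.6, pandas 2.3.3 and matplotlib 3.10.9.

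The members, lists and tests were chosen with earlier results of these data known. Per-library values are given for called members, for the 12 members of smallest unadjusted p, and for the members of highest and lowest WT mean per kb. From the other lists, called genes and up to 3 of smallest p are named, and the muscle precursor list is not reported here. Alternatives were other pseudocounts, filters, variance priors and scalings, no set term, only litter 1 kept of the Ovation set, each library left out in turn, and a block of replicate numbers.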

Additional observations from a re-analysis of the deposited data

Results flagged for a closer look

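Single libraries stood apart from the rest of their group in 4 of the 62 combinations of an imprinted gene and a genotype examined, where chance gives about 1 in 20. Zim1 was at 68.2 CPM in WT S_252, with the next WT library at 59.1 CPM, and without WT S_252 Zim1 was still called in KO against WT (limma adjusted p = 0.0293). Gnas was at 804 CPM in KO S_258, with the next KO library at 626 CPM, and Gnas was called in the Ovation set also when KO S_258 was left out. Ndn was at 46.4 CPM in KO S_280, against 35.4 CPM in the next KO library. Dcn was at 14.4 CPM in WT 3, against 1.66 CPM in the next WT library.

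The log2 FC of Cdkn1c was 1.23 higher in the Ovation set than in the NEBNext set, since every KO library was above every WT library in the first set and below every WT library in the second. This interaction did not pass limma's adjusted test (adjusted p = 0.0741 over all genes).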

How the results depend on the processing

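Slc38a4 and Zim1 passed limma's adjusted test under all 22 alternatives run, with log2 FCs of -0.59 to -0.47 and -0.66 to -0.55 and adjusted p up to 0.0306 and 0.0293. Members called were 2 or 3 and their median log2 FC -0.09 to 0.03 throughout. Peg10 passed with a filter of 5 CPM (adjusted p = 0.0449), a robust prior (0.0215), median ratio scaling (0.0487), quantile normalization (0.0336), no set term (0.0326) and without KO 4 (0.0312), and Grb10 without WT 4. Calls over all genes numbered 272, and 106 to 337 when 1 library was left out, of which WT S_252 left 124, WT S_254 left 127, KO S_284 left 168 and KO 2 left 106 calls when removed, and 102 where only litter 1 of the Ovation set was kept.

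In the Ovation set alone, member calls moved from 1 to 0 without the trend and to 3 (Gnas, Grb10, Zim1) with a robust prior, and were 0 to 4 when 1 library was left out, 0 without WT S_252 or WT S_254 and 4 without KO S_280 (Asb4, Cdkn1c, Gnas, Usp29). In the NEBNext set alone they moved from 0 to 3 (Cdkn1c, Slc38a4, Zim1) with a robust prior and to 0 to 2 when 1 library was left out, with 2 without WT 4 (Cdkn1c, Nnat). Interactions moved from 0 to 1 (Cdkn1c, adjusted p = 0.0366) with a robust prior and to 0 to 1 when 1 library was left out, with 1 without KO S_280. The cause was not tested.

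Only numbers 3 and 4 occur in both NEBNext groups, and deviations correlated at 0.20 for number 3 and -0.04 for number 4 across genes. For unlike numbers they correlated at -0.09 (WT 3 and KO 4) and -0.16 (WT 4 and KO 3). These values do not settle whether the numbers mark pairs, and the main fit did not take them as pairs. With a replicate block, 1 member (Slc38a4) was called in the NEBNext set and Asb4 over all libraries (adjusted p = 0.0321). With no read depth, low genes such as Phlda2, Nap1l5 and Magel2 have unknown counting error.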
